A study of Mus musculus with 16 samples.

Results

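The regions of open chromatin described here lie at or near 10 genes whose products make platelets work: Vwf, Selp, Mmrn1, Pf4, Itga2b, Itgb3, Gp1ba, Gp9, Gp6 and Nfe2. Overlapping peaks of all libraries were merged, regions with a peak in at least 2 libraries were kept, and a region was given to the protein-coding gene nearest to it on GRCm38 within 100 kb. This left 34 of 33773 regions, at 9 of the 10 genes, since Gp6 had none. The regions were 408 to 3609 bp wide, with a median of 910 bp, against 830 bp over all regions. Regions are numbered along the chromosome (Vwf-1, Vwf-2), and coordinates are on mm10. Of the 34 regions, 9 lay within 1 kb of an end of the gene, 20 within the gene and 5 outside it, the farthest 12631 bp away. Locations of the 34 regions and their distances from genes are measured from the median summit of a region's peaks, not from its edge. The 29 at an end or within compare with 72.1% of all regions, and the 9 at an end with 32.2%. Exon and intron annotation was not used, and assignment by distance does not show which gene a region acts on.

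The libraries measured open chromatin by Omni-ATAC, in which a transposase inserts sequencing adapters into accessible DNA, in 10000 sorted haematopoietic stem cells (HSCs) from male B6 mice. There were 4 groups of 4 libraries. Old pre libraries each came from a single 24-month-old donor, and young pre libraries each from a pool of 3 to 4 donors aged 8 to 12 weeks. Old post and young post libraries came from the pooled marrow of 5 lethally irradiated young BJ recipients, 3 months after 1000 HSCs of such donors had been transplanted with 300000 BJ helper marrow cells depleted of Sca-1+ cells. All donors were unmodified, all recipients were young, and the labels do not say that HSCs taken after transplantation were sorted by a donor marker, so recipient or helper HSCs cannot be told apart from donor HSCs in post libraries. The comparisons ask how donor age, and 3 months in a young recipient, relate to the peaks called at platelet genes.

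HSCs give rise to every blood lineage, and a portion of them is biased toward megakaryocytes, the large marrow cells that shed platelets. Von Willebrand factor marks such platelet-biased HSCs in the mouse, and platelet genes are known to be more active in aged mouse HSCs than in young ones. GATA, ETS, RUNX and NF-E2 factors act on megakaryocyte genes. Platelets use the products of these genes to stick to damaged vessel walls, to bind each other and to release stored proteins.

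The promoters of Pf4 and Gp1ba lay in regions called in all 16 libraries, those of Selp and Mmrn1 in regions called in 3 libraries, and that of Gp6 in no region, so these 5 promoters are shown. Each runs 5′ to 3′ from 250 bases before to 50 bases after the gene start, taken from RefSeq (GRCm38.p6). Capitals mark AGATAA or TGATAA, the GATA motif, and CCGGAA or AGGAAG, an ETS motif, on either strand.
Pf4 promoter: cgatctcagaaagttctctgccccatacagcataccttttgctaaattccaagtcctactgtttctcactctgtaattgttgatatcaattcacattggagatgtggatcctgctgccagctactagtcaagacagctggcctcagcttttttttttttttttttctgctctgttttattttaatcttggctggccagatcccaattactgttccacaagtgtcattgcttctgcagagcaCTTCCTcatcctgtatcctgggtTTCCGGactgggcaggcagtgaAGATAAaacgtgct
Gp1ba promoter: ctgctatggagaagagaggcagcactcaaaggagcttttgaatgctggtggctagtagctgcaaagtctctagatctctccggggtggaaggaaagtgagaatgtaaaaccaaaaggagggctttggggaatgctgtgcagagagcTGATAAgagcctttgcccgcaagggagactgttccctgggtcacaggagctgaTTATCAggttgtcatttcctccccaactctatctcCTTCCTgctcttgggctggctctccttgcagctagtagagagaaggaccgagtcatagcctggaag
Selp promoter: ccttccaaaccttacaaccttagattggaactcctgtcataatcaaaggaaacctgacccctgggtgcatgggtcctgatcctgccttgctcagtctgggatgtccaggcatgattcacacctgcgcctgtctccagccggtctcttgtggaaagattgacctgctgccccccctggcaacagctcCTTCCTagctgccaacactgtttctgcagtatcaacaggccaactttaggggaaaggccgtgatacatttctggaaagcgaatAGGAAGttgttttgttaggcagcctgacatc
Mmrn1 promoter: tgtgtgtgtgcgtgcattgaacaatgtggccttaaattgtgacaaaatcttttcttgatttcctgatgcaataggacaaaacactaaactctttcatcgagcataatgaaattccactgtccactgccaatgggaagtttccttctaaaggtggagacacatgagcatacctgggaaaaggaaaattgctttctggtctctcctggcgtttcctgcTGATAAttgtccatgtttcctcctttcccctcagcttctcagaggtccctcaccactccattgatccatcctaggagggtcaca
Gp6 promoter: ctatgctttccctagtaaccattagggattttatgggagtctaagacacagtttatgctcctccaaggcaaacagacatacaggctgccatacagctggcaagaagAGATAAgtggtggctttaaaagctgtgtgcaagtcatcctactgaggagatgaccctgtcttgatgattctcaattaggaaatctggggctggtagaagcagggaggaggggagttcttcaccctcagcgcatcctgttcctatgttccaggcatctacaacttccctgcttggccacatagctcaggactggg
The Pf4 promoter is chr5:90772185-90772484 on the plus strand. The Gp1ba promoter is chr11:70638872-70639171, the Selp promoter chr1:164115014-164115313 and the Mmrn1 promoter chr6:60944067-60944366, all on the plus strand. The Gp6 promoter is chr7:4397695-4397994 on the minus strand.

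Promoter sequence was matched for 7 of the 10 genes, those shown and Gp9 and Itga2b. A GATA motif was present in 4 of these 7 promoters (Pf4, Gp1ba, Mmrn1 and Gp6), against 18.6% of 32851 promoters of the same length. An ETS motif was present in 5 of 7 (Pf4, Gp1ba, Selp, Gp9 and Itga2b), against 45.2%. The RUNX motif TGTGGT was found in the Gp9 promoter alone of the 7, against 16.8% of all promoters. TGANTCA, read by AP-1 and NF-E2, was found in the Selp promoter alone of the 7, against 7.8%. The E-box CANNTG was present in 5 of 7, against 72.3%. Motifs were read on both strands and no 2 of the marked motifs share bases in the promoters shown. Both promoters in regions called in all 16 libraries hold GATA and ETS motifs, while the Gp6 promoter, with no peak, also holds a GATA motif, so these letters alone did not divide called from uncalled promoters.

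The lists differed widely in length, which sets how many regions any library can show. Old pre lists held 27302, 30520, 17299 and 5687 peaks, young pre lists 28298, 23044, 21346 and 9614, old post lists 23287, 28498, 31003 and 14008, and young post lists 30784 to 32530. Read depth was not used, so a region without a peak is described as not called, never as closed. For each region, expected calls were therefore computed from the region's total over all libraries and each library's own tendency to call regions. These expected calls add up to the region's total, so calls beyond expectation in some libraries must be balanced by calls short of it in others. Transposition days followed the groups in part. Old pre 1 and 2 were transposed on day 1 and old pre 3 and 4 on day 2. The first 3 young pre libraries shared day 2, and the last was made on day 3. Old post 1 and 2 were made on day 4. Day 5 was shared by old post 3 and the first 2 young post libraries, and day 6 by old post 4 and the other two. Stage and day cannot be told apart.

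The HSC label was checked on 10 genes of HSCs (among them Mecom, Hlf, Procr and Kit), and all 10 had regions. Their regions were called 171 times in old pre, 158 in young pre, 172 in old post and 241 in young post libraries, of 292 possible per group. Of 8 further megakaryocyte genes, 4 had no region (Ppbp, Tubb1, Treml1 and Clec1b), and the regions of the other genes were called 19, 17, 21 and 27 times in the same order, of 28. The B cell genes Cd79a and Ms4a1, the T cell genes Cd3e, Cd3g, Cd8a and Cd4, the granulocyte genes Elane, Mpo, Camp, Ngp, S100a8 and Ly6g, the red cell genes Alas2, Hba-a1 and Hbb-bs, and the endothelial gene Tek had no region in any group. The 6 red cell regions were called 14 times in old pre, 16 in young pre, 19 in old post and 24 in young post libraries, of 24. The 8 granulocyte and monocyte regions were called 15, 15, 22 and 32 times in the same order, of 32. The 5 B cell regions were called 11, 10, 10 and 16 times of 20, the 2 T cell regions 6, 7, 8 and 8 times of 8, and the 12 endothelial regions 23, 24, 30 and 43 times of 48. Over all regions, the share called averaged 55.5% in old pre, 56.19% in young pre, 67.12% in old post and 88.5% in young post libraries. The part of other cells in the calls at platelet genes was not tested.

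Across the 34 platelet gene regions, old libraries made 175 of 272 possible calls and young libraries 181 of 272. Old pre libraries called 30, 34, 16 and 6 of the 34 regions, and young pre libraries called 24, 19, 19 and 10. Old post libraries called 20, 26, 29 and 14, and young post libraries 30, 27, 26 and 26. The old and young ranges overlapped before transplantation, where old pre 2 called every region and old pre 4, the shortest list, called the fewest. The share called averaged 63.24% ± 37.93 in old pre and 52.94% ± 17.15 in young pre libraries (SD, n = 4 each). It averaged 65.44% ± 19.56 in old post and 80.15% ± 5.57 in young post libraries (SD, n = 4 each). Over all regions the share averaged 55.5% in old pre, 56.19% in young pre, 67.12% in old post and 88.5% in young post libraries. Against the calls expected from list length, the 4 old pre libraries together stood at 11.83, the young pre libraries at -2.12, the old post libraries at -0.06 and the young post libraries at -9.65 calls.

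**Figure D1:**
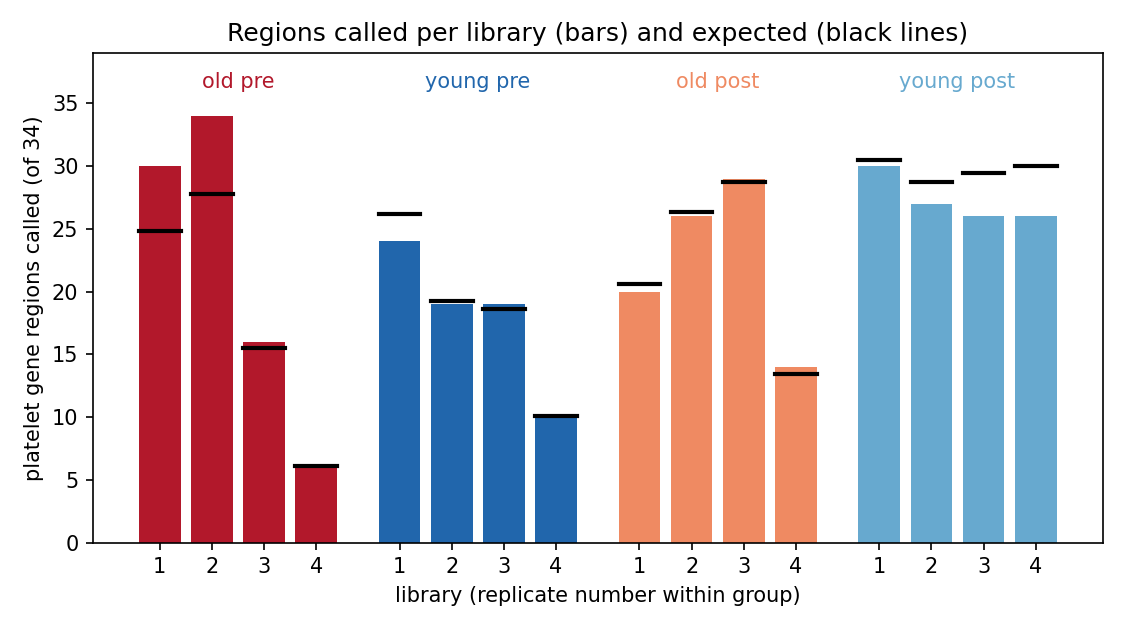
Number of the 34 platelet gene regions called in each library (bars, by group and replicate), with black lines at the number expected from list length. Old pre 1 and 2, with 30 and 34 regions, stand above their expected 24.81 and 27.77, while young post 3, with 26 regions, stands below its expected 29.44.

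Before transplantation, the share of calls beyond expectation was 10.25 percentage points higher in old than in young libraries. The standard deviation between libraries of a group was 9.46 points in old pre and 3.29 in young pre, or 7.08 pooled (n = 4 each). It describes single libraries and is not the error of the difference. Old pre 1 and 2 held 5.19 and 6.23 calls beyond expectation, and both were transposed on day 1, which held no young library. On day 2, which held both ages, the difference was 1.20 points, and without old pre 1 and 2 it was 1.48 points, a setting chosen after seeing the data. After transplantation the difference was 7.05 points (pooled SD between libraries of a group 3.52), and over days 5 and 6, which held both ages, it was 5.21 points. With longer lists cut to the length of the third shortest, 14008 peaks, the difference after transplantation was 0.84 points. Regions were merged anew in each setting, which left 30 member regions for 1.20, 1.48 and 5.21 points and 15 for 0.84 points. Where 30 were left, the regions lost were Selp-2, Itgb3-7, Itga2b-2 and Mmrn1-3, each called in old pre 1 and 2. Leaving out these libraries thus also removed regions that held their calls beyond expectation. How far this lowered the differences was not tested. No test was made of any of these differences, because the genes were chosen with results of these data known.

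The member regions differed widely in how often they were called. Peaks were called in all 16 libraries at 6 of the 34 regions (Vwf-2, Selp-3, Itga2b-3, Pf4-1, Gp1ba-1 and Nfe2-4), against 15.6% of all regions. Another 9 regions were called in 13 to 15 libraries, 14 in 4 to 12 and 5 in 2 or 3. In all, 16 of 34 were called in 12 or more libraries, against 52.4% of all regions. Of the member regions 10 had more calls in old libraries, 14 had more in young libraries and 10 had equal numbers. These are raw counts that take no account of list length, and the same split over all regions was not counted. The region just inside the limit of 2 libraries was Itga2b-2, called in old pre 1 and 2. Just outside it were 3 stretches called by old pre 2 alone, of 850 bp in Selp, 707 bp in Nfe2 and 180 bp in Mmrn1.

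**Figure D2:**
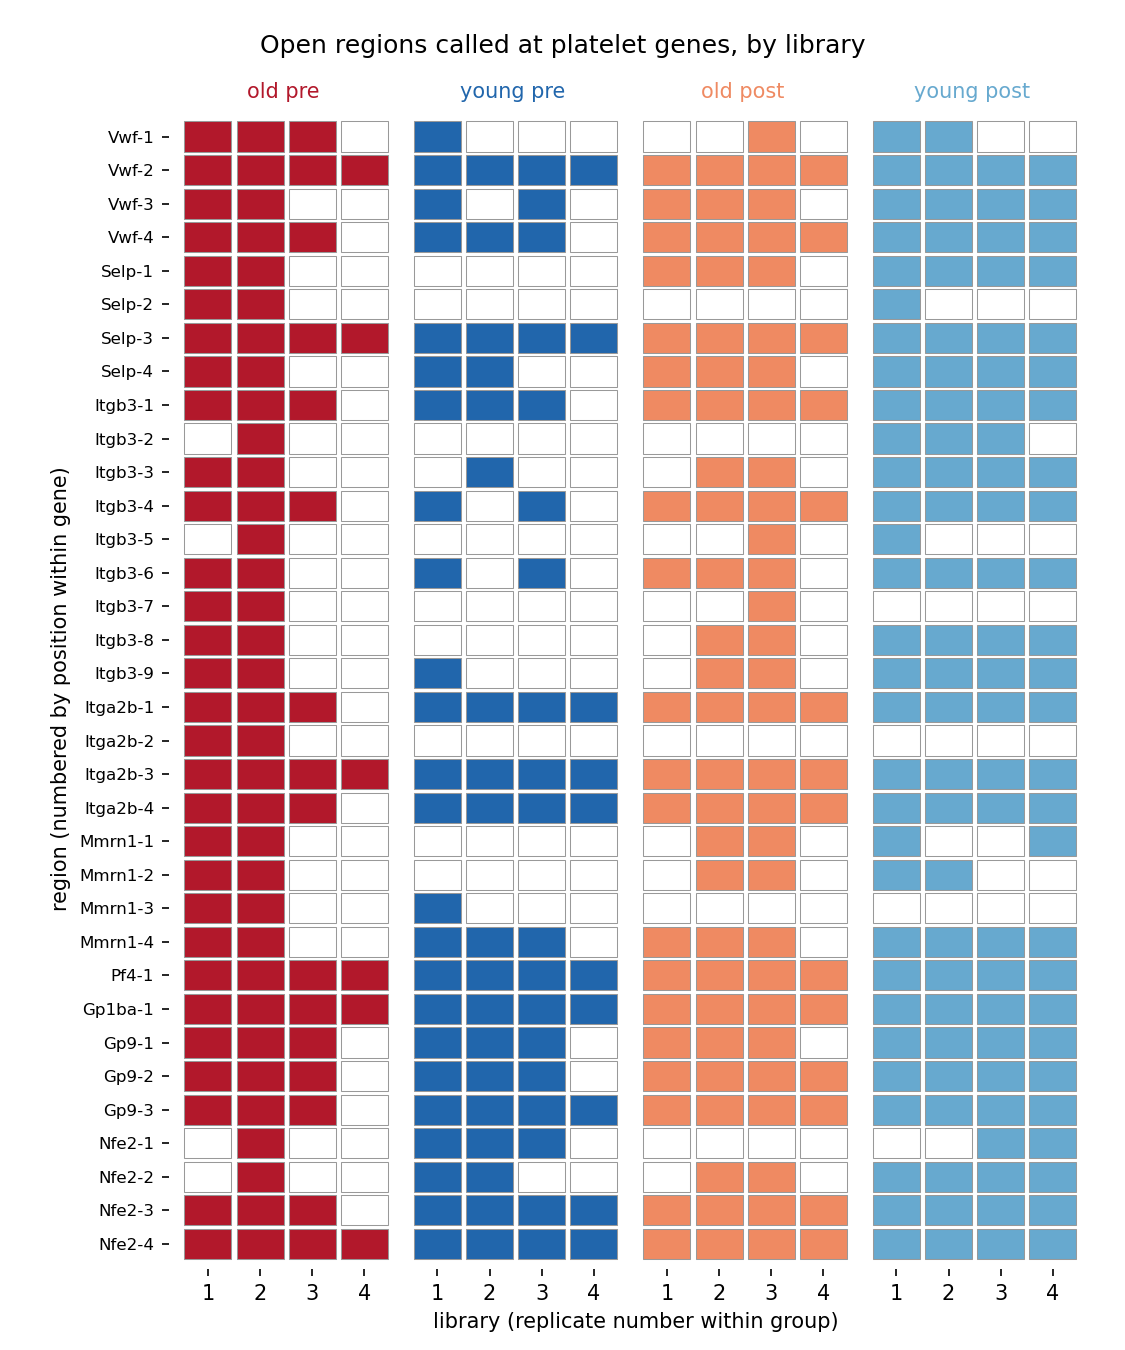
Calls at the 34 platelet gene regions (rows) in the 16 libraries (columns, by group), a filled cell being a region with a peak. Old pre 2 has every cell filled, old pre 4 has 6, and 6 regions are filled in every library.

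At each region that was called in neither too few nor too many libraries, calls in old and young libraries were compared by an exact two-sided test weighted for list length, with Benjamini-Hochberg adjustment over all regions tested. Over both stages, 14 member regions could be tested and none passed an adjusted p of 0.05 in either direction, while among 15182 regions 38 (0.250%) were higher and 3 (0.0198%) lower in old libraries. Pre and post libraries of a donor counted as separate in this test over both stages. Its p-values therefore assume more independent libraries than there were donors or donor pools. Without adjustment, 2 of the 14 passed a p of 0.05 as higher in old libraries (Mmrn1-1 and Mmrn1-2), against 2.64% of all regions tested, and 0 passed as lower, against 1.92%. Fisher's exact test, which takes no account of list length, gave 0 adjusted calls at any region. Calls in old libraries exceeded expectation at 10 of the 14 members, with a median of 0.161 calls, against 7235 of 15182 regions and a median of -0.242.

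Within stages the members gave no call either. For old pre against young pre libraries, 11 members were tested and none passed with or without adjustment, while over all 9407 regions 0.00% passed adjusted in either direction. Without adjustment 1.35% of the 9407 were higher and 0.935% lower in old pre libraries. For old post against young post libraries, 4 members were tested and none passed with or without adjustment. Of 5163 regions 24 (0.465%) were higher in old post libraries and none lower, and unadjusted 1.84% were higher and 0.00% lower. Few old post calls were expected, so a lower result was hard to reach and its absence is not read as a result. At Itgb3-2, 0 old post and 3 young post calls, with 0.64 expected in old post, gave p = 0.471 (exact weighted test). Regions called in all or nearly all libraries cannot enter these tests, so the members with peaks in nearly every library were not compared by presence.

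Von Willebrand factor, encoded by Vwf (chromosome 6, 125552948 to 125686679), is the large plasma protein that tethers platelets to injured vessel walls, and its gene had 4 regions. Vwf-2, within the gene at chr6:125572357-125573923, was called in every library. Vwf-4 was called in 14 libraries and Vwf-3 in 11. The region over the gene end, Vwf-1 (chr6:125552614-125553394), was called in old pre 1, 2 and 3, young pre 1, old post 3, and young post 1 and 2. Calls at Vwf-1 thus stood at 4 of 8 in old and 3 of 8 in young libraries, where 2.81 were expected in old. The difference did not pass (exact weighted test, p = 0.165, adjusted p = 1). In the 7 lists that held it, Vwf-1 was a small peak: between 0.5% and 35.0% of peaks in the same list had a smaller area, where area is the caller's summed significance over the peak. The highest places were 35.0% and 27.0%, in old pre 2 and 1. Over the 4 Vwf regions, calls were 12 of 16 in old pre, 10 in young pre, 12 in old post and 14 in young post libraries.

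P-selectin, encoded by Selp (chromosome 1, 164115264 to 164150026), is the receptor that platelets carry to their surface when activated, where it binds white blood cells. Selp-3 was called in every library and Selp-4 in 11. Selp-2, at the gene end (chr1:164115097-164115553) and over 217 of the 300 promoter bases shown, was called in old pre 1 and 2 and in young post 1. With 3 calls it could not be tested. Selp-1 (chr1:164109626-164110280), 5225 bp outside the gene, was called in old pre 1 and 2, no young pre library, old post 1 to 3 and all 4 young post libraries. Its calls at 5 of 8 in old and 4 of 8 in young libraries, with 3.91 expected in old, did not differ in the test (exact weighted test, p = 0.133, adjusted p = 1). Before transplantation both libraries with Selp-1 were old, and after it every young library held it.

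Multimerin 1, encoded by Mmrn1 (chromosome 6, 60944317 to 60989378), is a granule protein of platelets that binds coagulation factor V. Its gene held the members with the smallest p for age. Mmrn1-1 (chr6:60931317-60931783), 12631 bp outside the gene, was called in old pre 1 and 2, no young pre library, old post 2 and 3, and young post 1 and 4. Mmrn1-2 (chr6:60935473-60935921), 8652 bp outside, was called in old pre 1 and 2, no young pre library, old post 2 and 3, and young post 1 and 2. Each thus had 4 of 8 old and 2 of 8 young calls, with 2.29 expected in old, at p = 0.0464 (exact weighted test, adjusted p = 0.812). These regions share a gene and a source of cells and are not independent of each other. Mmrn1-3, at the gene end (chr6:60944039-60945002) and over the whole promoter shown, was called in old pre 1 and 2 and young pre 1, and in no post library, and with 3 calls could not be tested. Mmrn1-4, within the gene, was called in 12 libraries. Over the gene, calls were 8 of 16 in old pre, 4 in young pre, 7 in old post and 8 in young post libraries, and against expectation old pre libraries stood at 3.38 and young post libraries at -4.10.

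Platelet factor 4, encoded by Pf4, is a chemokine stored in platelet granules. Its only region, Pf4-1 (chr5:90771284-90773106), covers the promoter and was called in all 16 libraries. The area of this peak ran between 250.18 and 2291.14, with a median of 1625.57. The next gene, Ppbp, which encodes another platelet chemokine, lies 2470 bp from the summit of this region and had no region of its own.

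**Figure D3:**
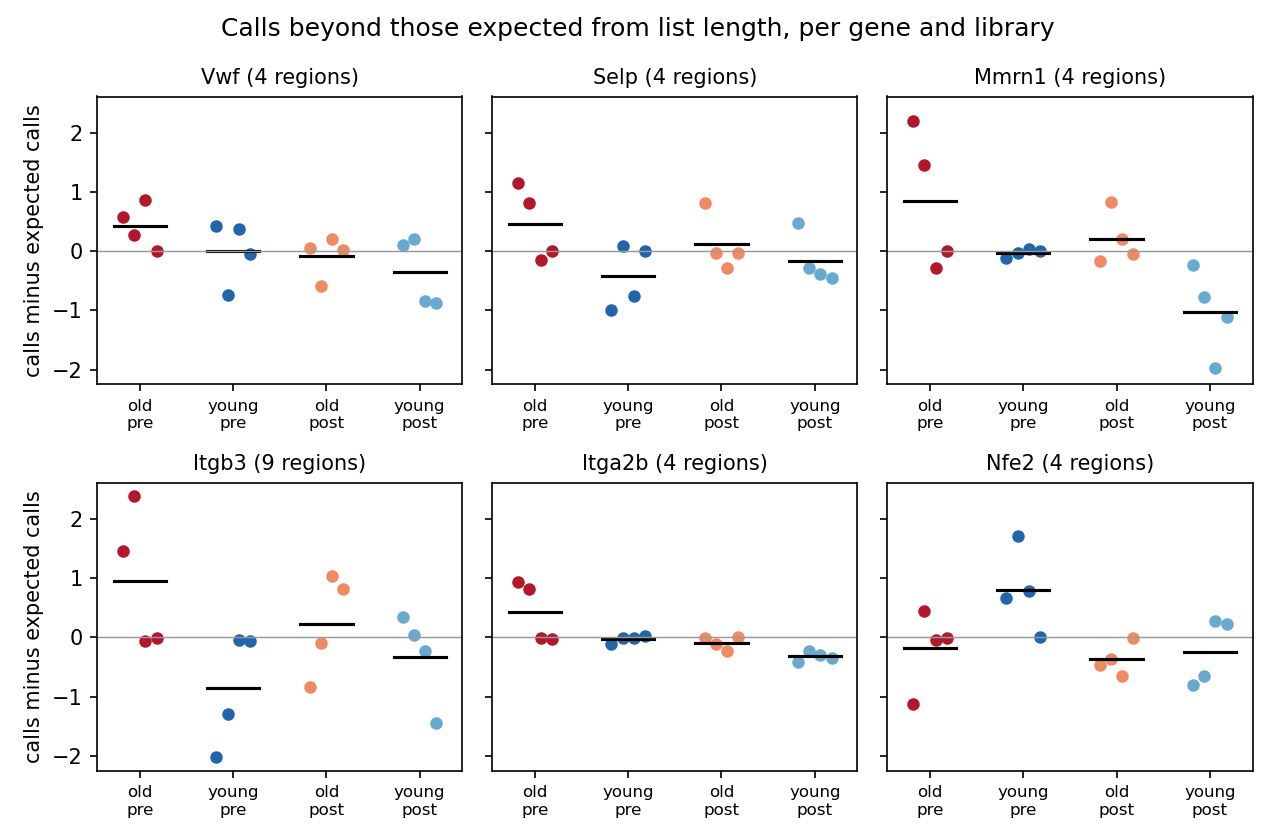
Calls minus calls expected from list length, per library, at the regions of Vwf, Selp, Mmrn1, Itgb3, Itga2b and Nfe2, with points as libraries by group and black lines as group means. The old pre libraries sum to 3.38 calls beyond expectation at Mmrn1 and 3.79 at Itgb3, and the young pre libraries sum to 3.18 beyond expectation at Nfe2.

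Itga2b and Itgb3 encode the 2 chains of the fibrinogen receptor, the integrin αIIbβ3 through which platelets bind each other. At Itga2b (chromosome 11, 102453297 to 102469883), also known as CD41 and present on some HSCs, 3 of 4 regions were called in nearly every library. Itga2b-3 was called in all 16, and Itga2b-1 and the gene-end region Itga2b-4 (chr11:102469448-102470784) in all but old pre 4. Itga2b-2 (chr11:102466074-102466552) was called in old pre 1 and 2 and in no other library, with 1.40 calls beyond the 0.60 expected in old libraries, and with 2 calls could not be tested. Each group made 12 of 16 calls at the gene, and against expectation old pre stood at 1.73, young pre at -0.08, old post at -0.36 and young post at -1.28 calls.

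Itgb3 (chromosome 11, 104608000 to 104670476) had 9 regions, the most of any member gene, and most were called in some libraries only. The gene-end region Itgb3-1 (chr11:104607022-104608947) was called in all libraries but old pre 4 and young pre 4, which had the 2 shortest lists. The share of peaks in the same list with a smaller area than Itgb3-1 was 91.4%, 91.4% and 84.5% in old pre 1 to 3, against 76.5%, 63.0% and 62.8% in young pre 1 to 3. These places did not overlap before transplantation, and on day 2 old pre 3 also stood above the 3 young pre libraries. After transplantation they were 69.5%, 74.6%, 77.7% and 38.8% in old post and 82.8%, 78.7%, 79.0% and 74.4% in young post libraries, and overlapped. The places were singled out after their values were seen and come from lists of different length, so no test was made and no change is read from them. The share of all regions whose places likewise do not overlap was not counted. Itgb3-4 was called in 13, Itgb3-6 in 11, Itgb3-3 and Itgb3-9 in 9 each, Itgb3-8 in 8, Itgb3-2 in 4 and Itgb3-5 in 3. Itgb3-7 (chr11:104646615-104647771) was called in old pre 1 and 2 and old post 3, and in no young library. Its 3 calls in old libraries against 0.96 expected were the largest excess of any member, but 3 calls are too few to be tested. In the old pre 2 list 54.9% of peaks were smaller than Itgb3-7, in old pre 1 32.4% and in old post 3 19.3%. Over the gene, calls were 18 of 36 in old pre, 9 in young pre, 19 in old post and 28 in young post libraries, which put old pre libraries at 3.79 and young pre libraries at -3.43 against expectation.

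Gp1ba and Gp9 encode parts of the GPIb-IX-V complex, the platelet receptor for von Willebrand factor. Gp1ba-1 (chr11:70638355-70639875), over the gene end and the promoter shown, was called in all 16 libraries with areas of 429.13 to 2393.25. The gene-end region Gp9-2 (chr6:87775654-87777093) was called in all libraries but old pre 4 and young pre 4. Gp9-3, over the RefSeq promoter, was called in all but old pre 4, and Gp9-1, 5288 bp outside the gene, was missing from old pre 4, young pre 4 and old post 4. Every call missing at Gp9 was in the shortest list of its group. In old libraries Gp9-2 held 0.05 calls beyond expectation.

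Gp6 encodes GPVI, the collagen receptor of platelets, and was the member gene with no region. No list held a peak between 4274192 and 4427110 on chromosome 7, a stretch of 152.9 kb that includes the whole gene (4362853 to 4397851). The nearest region, 29.3 kb away at Rdh13, was called in 12 libraries, and the nearest on the other side, 88.7 kb away at Lilra5, in 8.

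**Figure D4:**
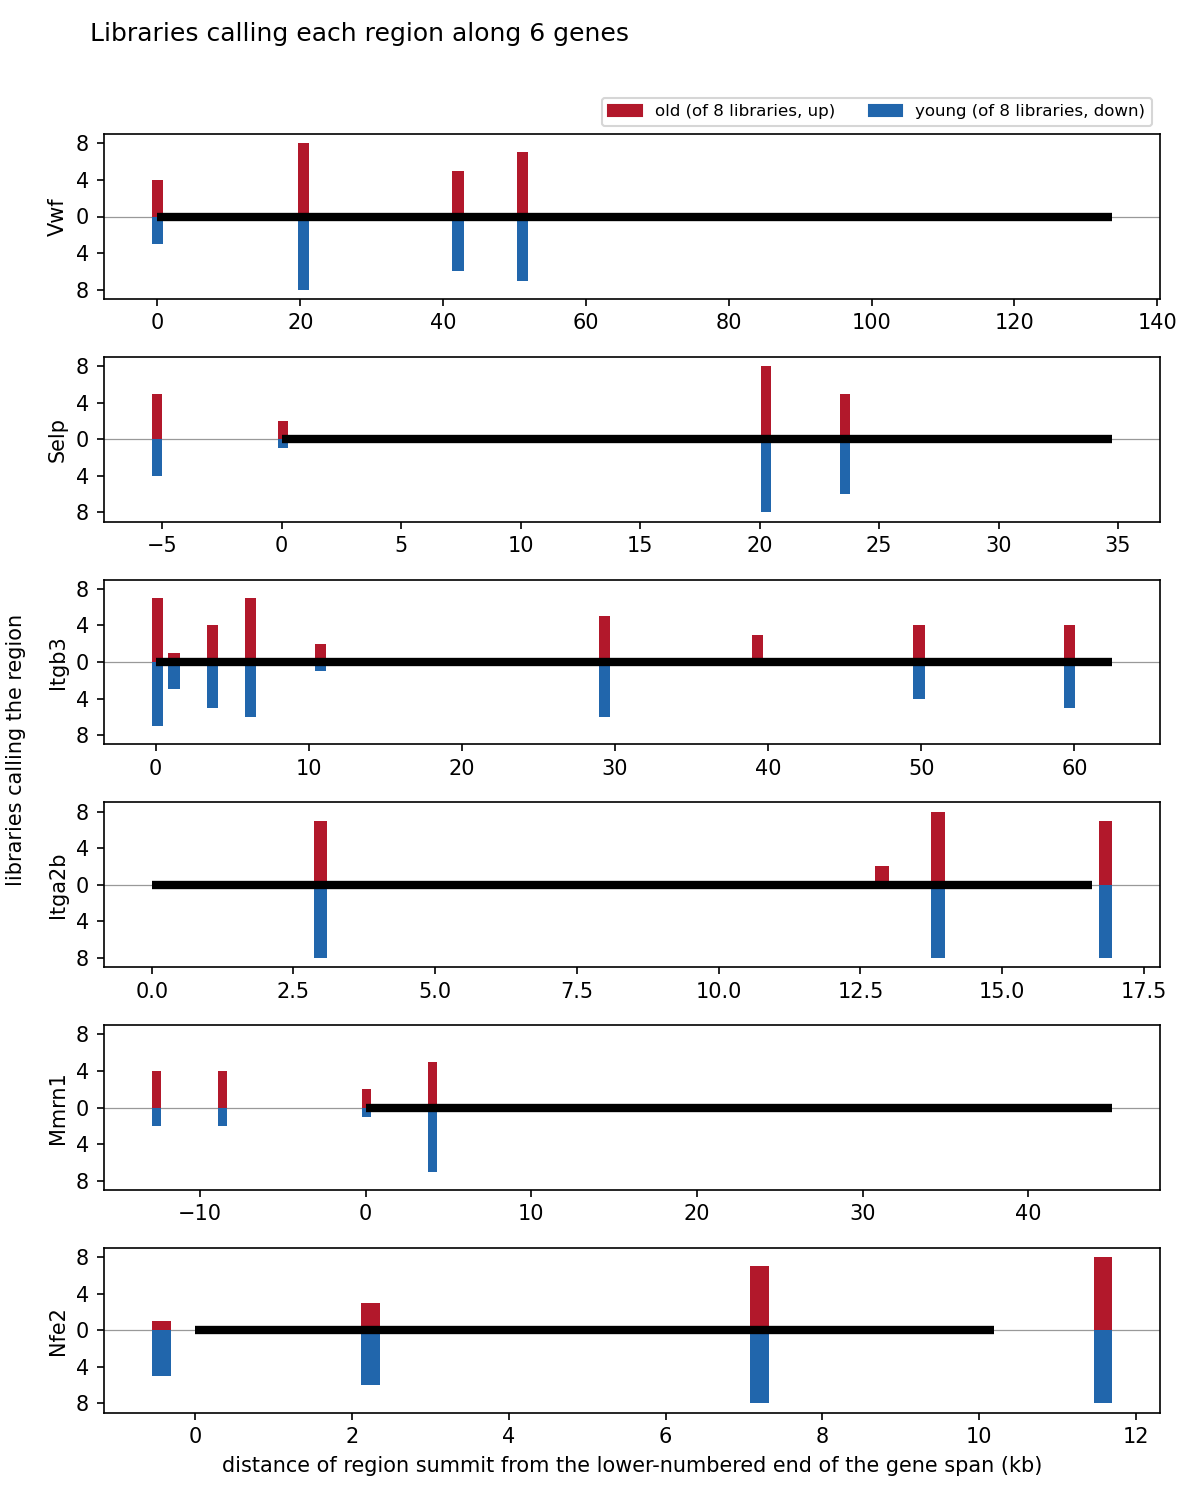
Regions along 6 platelet genes, with bars up for calls among the 8 old libraries and bars down for calls among the 8 young libraries, against distance in kb from the lower-numbered end of the gene. Mmrn1 shows 4 old and 2 young calls at both regions outside the gene, and Itgb3 shows 1 region with 3 old and 0 young calls.

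Nfe2 (chromosome 15, 103248212 to 103258403) encodes the p45 subunit of NF-E2, the transcription factor that megakaryocytes need to form platelets. Nfe2-4 (chr15:103257351-103260959), over the upper end of the gene, was called in all 16 libraries and was among the largest peaks of each, with 85.7% to 99.1% of peaks in the same list smaller. Nfe2-3 was called in all but old pre 4. Nfe2-2 was called in old pre 2, young pre 1 and 2, old post 2 and 3, and all young post libraries, with 3 of 8 old and 6 of 8 young calls (exact weighted test, p = 0.337, adjusted p = 1). Nfe2-1 (chr15:103246218-103248783), at the lower end of Nfe2 and overlapping the gene span of Hnrnpa1 by 481 bp, was called in old pre 2, young pre 1, 2 and 3, and young post 3 and 4, and in no old post library. Old libraries held 1 of 8 and young libraries 5 of 8 calls at Nfe2-1, with 2.29 expected in old (exact weighted test, p = 0.171, adjusted p = 1). Over the gene, calls were 9 of 16 in old pre, 13 in young pre, 10 in old post and 14 in young post libraries, and against expectation old pre stood at -0.74, young pre at 3.18, old post at -1.48 and young post at -0.96 calls.

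After transplantation no member passed in either direction, with 14 tested, while of 15182 regions 1 (0.00659%) was higher and 60 (0.395%) were lower in post than in pre libraries. With the donor as a replicate block, 39 of the 15182 passed and none of the members. Without adjustment, 2 of the 14 members were lower in post libraries (Nfe2-1 and Vwf-1), against 3.81%, and 0 were higher, against 1.80%. Nfe2-1 had 2 of 8 post and 4 of 8 pre calls, where 4.44 were expected in post (exact weighted test, p = 0.00257, adjusted p = 0.253). Within donor pairs it was called after but not before transplantation in 1 of 8 and before but not after in 3 of 8 (exact test within pairs, p = 0.00335, adjusted p = 0.498). Without old pre 1 this region passed, at an adjusted p of 0.0454 (exact weighted test), and over its 22 alternatives adjusted p ran between 0.0454 and 0.733. Vwf-1 had 3 of 8 post and 4 of 8 pre calls, where 5.01 were expected in post (exact weighted test, p = 0.0181, adjusted p = 0.559), and within pairs it did not differ (exact test, p = 1).

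Before transplantation, 7 of the 34 members were called in at least 2 old pre and no young pre libraries: Selp-1, Selp-2, Itgb3-7, Itgb3-8, Itga2b-2, Mmrn1-1 and Mmrn1-2. Over all regions the share was 6.0%, and the share at 224 regions of 52 other platelet and megakaryocyte genes was 4.46%. In each of the 7, the old libraries were old pre 1 and 2 and no others, so day 1 and old age cannot be told apart for them, and 5.99% of all regions had a peak in both of these and in no young pre library. None of the 7 was called in old pre 3 or 4. The opposite pattern, at least 2 young pre and no old pre libraries, was found at 0 of 34 members and 1.52% of all regions. After transplantation, Itgb3-2 and Nfe2-1 were called in at least 2 young post and no old post libraries, against 6.22% of all regions, and 0 members showed the opposite, against 0.423%. Itga2b-2 and Mmrn1-3 were called before but never after transplantation, against 2.71% of all regions, and 0 of 34 members were called after but never before, against 9.0%.

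**Figure D5:**
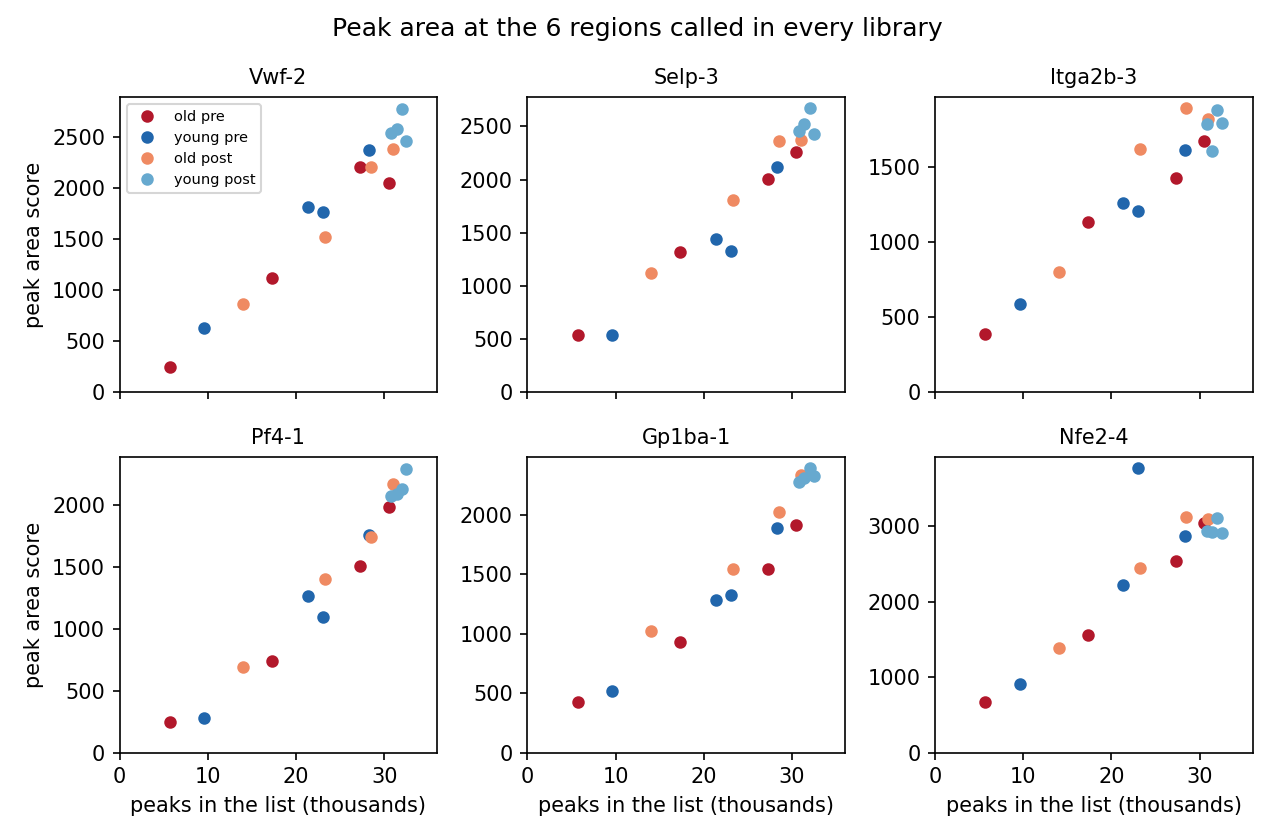
Peak area, the caller's summed significance over a peak, at the 6 platelet gene regions called in all 16 libraries, against the number of peaks in each list, with points as libraries by group. Areas are lowest in the shortest list, old pre 4 with 5687 peaks, as at Nfe2-4, where they run between 670.79 and 3765.89.

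The areas of the 6 regions called everywhere were not compared between ages, since they are not normalised between libraries. At each of the 6 the lowest area was in old pre 4 and the next in young pre 4, the 2 shortest lists. The highest was not always in the longest lists, as at Nfe2-4, where it was 3765.89 in young pre 2, against 2906.56 to 3109.98 in young post libraries. Young pre 2 held 1 peak over Nfe2-4, while young post libraries held 2 or 3, of which the largest area was taken. The area of Vwf-2 lay between 244.77 and 2772.61, that of Selp-3 between 539.08 and 2675.22 and that of Itga2b-3 between 391.84 and 1898.13. At all 6 of these regions the values spanned more than a factor of 4 between libraries.

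Other genes of the pathway were taken from a list of 60, of which 52 had 224 regions and 8 had none (Ppbp, Clec1b, Treml1, Tubb1, Cd36, Serpine2, Gata1 and Fcer1g). Their regions were called in 58.4% of cases in old pre, 56.9% in young pre, 67.6% in old post and 90.7% in young post libraries. The shares over all regions were 55.5%, 56.19%, 67.12% and 88.5% in the same order. Of 95 tested, 0 were higher and 1 lower in post than in pre libraries, and none was lower in old than in young libraries. The region lower in post libraries lay at Mafk (chr5:139796839-139797487), whose product is a small Maf partner of the Nfe2 protein, with 1 of 8 post and 6 of 8 pre calls, where 5.01 were expected in post (exact weighted test, adjusted p = 0.000233). Within donor pairs its adjusted p was 0.0261 (exact test). Against expectation, old exceeded young libraries at the list's regions by 1.52 points before transplantation and were 2.60 points lower after it (-2.60), while at the 34 member regions they were higher by 10.25 and 7.05 points. On shared transposition days the values before transplantation were 1.61 points at the list's regions and 1.20 at the member regions. After it they were -1.47 and 5.21 points, and with shortened lists -5.79 and 0.84. Shared days left 220 of the list's regions and 30 member regions, and shortened lists left 121 and 15. The member regions lost on shared days were all called in old pre 1 and 2. The difference between the lists was not tested, and the members were chosen with results of these data known.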

How the data were processed

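Open chromatin was measured in 16 mouse HSC libraries by Omni-ATAC. Per the submitters' processing notes, the authors used Trim Galore, cutadapt and Genrich on mm10, with aligner and settings not given in the sources used here. Deposited narrowPeak lists, 1 per library, hold the caller's area as a score (at least 200) and the −log10 p and −log10 q of each summit, none normalised between libraries, so presence of a peak was compared. The lists held 387029 peaks, and the 393 (0.102%) off the standard chromosomes were left out. Read depth is unknown, so no counting interval is given.

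Peaks overlapping by at least 1 bp were merged and regions in at least 2 libraries kept, with genes from the RefSeq table of GRCm38 (21631 protein-coding genes). Library weights came from a Rasch model fitted over all regions. The exact conditional test took regions called in 4 to 12 of 16, or 3 to 5 of 8, libraries, with Benjamini-Hochberg adjustment over all of these, and was tested on simulated data. Libraries of 1 group came from separate donors or donor pools. The series design pairs post with pre libraries of a donor, and deviations of such pairs correlated at -0.187 to 0.046. Regions given library by library are those at gene ends with most calls, those farthest from expectation in old libraries, and those at an unadjusted p under 0.05. A result at another gene of the platelet list is not reported here. The members, lists and rules were chosen with earlier results of these data known. Python 3.11.15, numpy 2.4.6, pandas 2.3.3, scipy 1.17.1 and matplotlib 3.10.9 were used. Alternatives were shorter lists, a −log10 q of at least 3, peaks covering 50% of the region's median peak width, regions in 3 libraries, genes within 20 kb, Fisher's test, blocks, shared days and libraries left out.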

Additional observations from a re-analysis of the deposited data

Results flagged for a closer look

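The peak area at Nfe2-4 in young post 4 was 3109.98, apart from 2906.56, 2935.57 and 2918.46 in the other young post libraries. It was 1 of 36 groups of 4 examined for a library far from the rest, and chance gives about 1 in 20. The young post lists held 2 or 3 peaks over Nfe2-4, and the area is that of the largest. Areas are not normalised between libraries, and the number of libraries limits what the value in young post 4 can show.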

How the results depend on the processing

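The count of member regions past the adjusted threshold stayed at 0 in each age comparison under every alternative run. Few members could be tested in some settings, only 1 in each age comparison with shortened lists, so a 0 there shows little. For post against pre the count became 1 (Nfe2-1) without old pre 1, and 1 without old pre 1 and 2 (calls minus expected -2.73 and -2.50), a range of 0 to 1 with single libraries left out. Over all regions, the 41 calls for age over both stages became 16 with shortened lists, 21 with a −log10 q of at least 3, 0 by Fisher's exact test, 3 with the replicate block, 8 on shared days and 14 without old pre 1 and 2, and with single libraries left out ran between 2 (without old pre 3) and 65 (without old post 2). It was also under 41 by more than 1.5 times without old pre 1 (13), young post 1 (8), young post 3 (7) and young post 4 (7). The 24 calls for old post against young post became 0 with shortened lists, 0 with −log10 q of at least 3, 4 with the replicate block and 2 on shared days. With single libraries left out they ran between 0 and 24 (0 without young post 2, 3 or 4). Fisher's exact test also gave 0. With 4 against 4 libraries its p cannot fall below 0.0286, so after adjustment over 5163 regions that 0 was nearly fixed in advance. The 61 calls for post against pre became 33 with −log10 q of at least 3, 0 by Fisher's exact test and 39 with the replicate block, and ran between 34 (without old pre 3) and 72. With shortened lists they were 36 higher and 15 lower in post, against 1 higher and 60 lower. The cause of these changes was not tested.

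Regions were merged anew where libraries or lists changed. This left 30 member regions on shared days or without old pre 1 and 2, and 15 with shortened lists. Where 30 were left, the regions lost (Selp-2, Itgb3-7, Itga2b-2 and Mmrn1-3) were all called in old pre 1 and 2. How far their loss lowered the differences was not tested. The old minus young difference at member regions before transplantation was 1.20 points on shared days and 1.48 without old pre 1 and 2, and 6.49 to 13.27 with single libraries left out. After transplantation it was 0.84 with shortened lists and 6.12 to 8.91 with single libraries left out, and over both stages, where it was 8.65, it was 6.37 to 10.18 with single libraries left out, 3.21 on shared days, 3.12 without old pre 1 and 2 and 4.97 with shortened lists. For the other platelet genes it was 2.73 points before transplantation with peaks covering 50% of the median width, and with shortened lists -5.79 after it and -2.09 over both, and with single libraries left out 0.98 to 1.99, -3.40 to -1.51 and -0.92 to 0.23. None of the named regions followed through the alternatives (Mmrn1-1, Mmrn1-2, Vwf-1, Nfe2-1 and the Mafk region) changed direction, and the other tested regions were not followed one by one. Same-numbered old and young libraries were not paired by the labels, their deviations correlated at -0.254 to 0.018, and 0 of 8 correlated best with their own number. Mmrn1-1 and Mmrn1-2 did not pass in any of 23 alternatives each, nor Vwf-1 in any of 22. The Mafk region passed in 21 of 23 alternatives, not with −log10 q of at least 3 or by Fisher's exact test.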
